A study of Mus musculus with 2 samples.

Results

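Crystallins of the alpha and beta families were followed in degenerative mouse cornea and in normal cornea. The members were all spots whose deposited name was Cryaa, Cryab, Cryba1, Cryba2, Cryba4, Crybb1, Crybb2 or Crybb3, ignoring case. All 8 symbols were found, on 10 of the 35852 gene spots of each array, since Cryab and Crybb3 had 2 spots each. The genes were selected on their deposited log2 ratios in these same arrays, so those ratios are a description and carry no test.

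Degenerative cornea, from Balb/c mice with a spontaneous corneal degeneration in one eye, was set against the normal cornea of those same mice, with no allele or agent named for either group. The total RNA of the pair was labelled in 2 colours and co-hybridised to 2 spotted arrays, with the degenerative cornea in Cy5 and the normal cornea in Cy3 on array 1 and the dyes exchanged on array 2. The arrays were counted as 1 replicate, so the spread given here is that between dye orientations and not between mice. The labels used here do not state the age of the mice, their number or any pooling of their RNA. A spot counted as above background where its intensity exceeded the median of 632 spots named Empty by more than 3 scaled median absolute deviations. The limits were 290 and 789 for degenerative cornea on arrays 1 and 2, and 570 and 373.2 for normal cornea. Of the Empty spots 100, 103, 96 and 103 lay in print blocks 41, 42, 45 and 46. From 25.2% to 59.2% of them per block exceeded a limit in at least 1 channel, so the limits rest largely on blocks with signal. At least 1 channel above the limit on each array was required, which left 7896 named genes. Median intensities of the gene spots were 246 and 413 in degenerative cornea on arrays 1 and 2, and 439 and 226 in normal cornea. Spots for Krt12, the keratin that defines corneal epithelium, were saturated in both tissues on both arrays.

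Crystallins are the bulk soluble proteins of the lens, where their dense packing gives transparency and refraction. The alpha crystallins are small heat shock proteins that bind unfolding proteins, and Cryab is also made in heart, muscle, retina and other tissues. The beta crystallins are built from Greek key domains, form oligomers and are divided into acidic (Cryba) and basic (Crybb) members. Some crystallins are also transcribed in retina and cornea. In lens their genes are switched on by Maf, Pax6, Sox and Prox1 factors that bind close to the start site.

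On the arrays 7 of the 8 genes were higher in degenerative cornea, and Cryab was the exception. All 3 acidic and all 3 basic beta crystallins and Cryaa had a deposited log2 ratio, degenerative over normal, of at least 1 on each array, the size taken here as a call. The same call was made for 0.317% of the 7896 named genes, 25 in all, and nothing is read from that contrast because these ratios chose the members. The median of the 8 mean log2 ratios was 1.84, beside a median of 0.0081 over all named genes. Of the member spots, 9 of 10 were above background in every channel and no member spot was saturated.

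The promoter windows of the 4 genes with the largest ratios are shown because these genes were higher together. RefSeq windows of 300 bases (GRCm38.p6), running from 250 bases before to 50 after the start site, were matched by symbol for 7 of the 8 genes. Capitals mark matches, on either strand, to TATAAA (the TATA box core), TGCTGA (core letters of a Maf recognition element), TGACTCA (AP-1 letters, which can overlap the Maf letters) or GAANNTTC (a heat shock element unit). The windows are Cryba1 at chr11:77725244-77725543 on the minus strand, Cryaa at chr17:31677681-31677980 on the plus strand, Crybb2 at chr5:113070068-113070367 on the minus strand and Cryba2 at chr1:74893094-74893393 on the minus strand.
Cryba1: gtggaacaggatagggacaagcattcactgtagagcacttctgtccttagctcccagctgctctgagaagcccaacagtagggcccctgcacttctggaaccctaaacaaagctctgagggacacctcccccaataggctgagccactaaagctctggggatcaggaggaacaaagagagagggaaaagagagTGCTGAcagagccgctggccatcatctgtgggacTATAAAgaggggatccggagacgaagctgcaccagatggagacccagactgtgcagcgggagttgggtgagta
Cryaa: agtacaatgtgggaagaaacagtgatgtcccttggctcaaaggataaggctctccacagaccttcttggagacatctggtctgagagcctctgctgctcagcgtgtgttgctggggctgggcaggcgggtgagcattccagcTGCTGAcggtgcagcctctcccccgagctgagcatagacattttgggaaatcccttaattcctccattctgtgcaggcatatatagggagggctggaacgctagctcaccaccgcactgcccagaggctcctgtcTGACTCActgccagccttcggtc
Crybb2: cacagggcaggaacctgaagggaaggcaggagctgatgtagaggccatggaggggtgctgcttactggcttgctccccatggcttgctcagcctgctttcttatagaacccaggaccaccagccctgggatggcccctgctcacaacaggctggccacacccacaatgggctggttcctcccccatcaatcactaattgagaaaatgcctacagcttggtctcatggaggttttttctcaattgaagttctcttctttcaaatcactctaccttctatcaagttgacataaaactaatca
Cryba2: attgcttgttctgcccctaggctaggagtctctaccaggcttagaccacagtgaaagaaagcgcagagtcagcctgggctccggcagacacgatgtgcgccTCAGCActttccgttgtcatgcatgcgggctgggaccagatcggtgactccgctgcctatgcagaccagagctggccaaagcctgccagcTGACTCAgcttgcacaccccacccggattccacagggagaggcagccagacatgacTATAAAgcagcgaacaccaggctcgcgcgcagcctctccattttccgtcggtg

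TGCTGA was present in 6 of the 7 crystallin windows, and in 19.5% of all 32851 RefSeq windows of this length. In Cryba1 it began at position -57 and in Cryaa at position -108, counted from the start site. Cryba2 and Crybb3 held it on the opposite strand, at -149 and -67. Cryba4 held it 3 times, at -182, -135 and -77, and Crybb1 held it at -84. TATAAA was present in 3 of 7 windows, those of Cryba1, Cryba2 and Crybb1, and in 13.6% of all windows. It began at -23 in Cryba1 and -30 in Crybb1, but at -3 in Cryba2, where it spans the start site. TGACTCA was in 2 of 7, Cryaa (at 28, after the start site) and Cryba2 (at -59), and in 5.20% of all windows. GAANNTTC was in 0 of 7 and 7.86% of all windows. The Crybb2 window held none of these letters although its gene was among the 4 with the largest ratios. Matches of this kind are letters and not tested binding sites.

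Cryaa, the alpha A chaperone that is made mainly in lens, was higher in degenerative cornea on both arrays. Its intensities were 22733 and 23452 in degenerative cornea on arrays 1 and 2, and 4507 and 4110 in normal cornea. The tissues did not overlap, and the degenerative cornea was brighter whichever dye it carried. The deposited log2 ratios were 2.74 and 2.25, a mean of 2.49 ± 0.35 (SD of the 2 arrays) or 5.63-fold. Its spread between arrays was the widest of the 8 genes in the deposited ratios. Without normalization the log2 intensity ratios were 2.33 on array 1 and 2.51 on array 2, so the array with the larger ratio changed with the normalization.

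Cryab, the alpha B chaperone, gave opposite readings at its 2 spots. The spot in print block 10 had intensities of 18459 and 19046 in degenerative cornea on arrays 1 and 2, and 15306 and 15712 in normal cornea. Its log2 ratios were 0.22 and 0.37, slightly above 0 on each array. The spot in print block 23 had 1446 and 1385 in degenerative cornea, and 1908 and 1560 in normal cornea, with log2 ratios of -0.27 and -0.42. Each spot kept its own direction when the dyes were exchanged, before normalization too (0.27 and 0.28 at block 10, and -0.40 and -0.17 at block 23). The mean over both spots, -0.02 on each array, therefore averaged a higher and a lower reading and neither reached the size of a call. The means of the spots differed by 0.65 in log2 ratio. Among the 725 genes with 2 spots above background that difference had a median of 0.15 and a 90th percentile of 0.41, and it was at least as large as that of Cryab in 18 genes, Cryab included (2.48%). The probe sequences were not analysed here, and which transcript each spot measured was not tested.

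**Figure D1:**
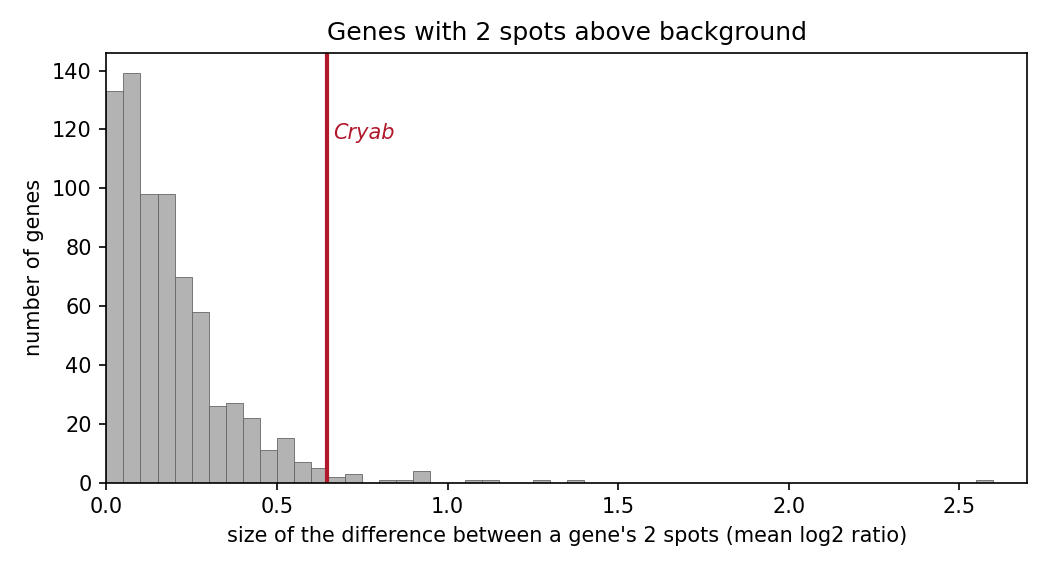
Histogram of the size of the difference between a gene's 2 spots, as the mean log2 ratio over both arrays, for the 725 genes with 2 spots above background (vertical axis, number of genes). The red line marks Cryab at 0.65, above the 90th percentile of 0.41.

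Cryba1, whose transcript is translated into the beta A3 and A1 proteins, had the largest mean deposited ratio of the 8 genes. With print-tip loess, whole-array loess or median-centred unnormalized ratios the mean of Cryaa was larger, at 2.38, 2.45 and 2.46, against 2.23, 2.24 and 2.23 for Cryba1. Cryba1 read 27879 and 29472 in degenerative cornea on arrays 1 and 2, and 6588 and 5980 in normal cornea. Log2 ratios of 2.52 and 2.58 gave a mean of 2.55 ± 0.04, or 5.84-fold, and the tissues stood far apart on each array. Cryba2, another acidic beta crystallin, read 7606 and 6854 in degenerative cornea, and 2261 and 2034 in normal cornea. Its log2 ratios were 2.20 and 1.74, a mean of 1.97 ± 0.33 or 3.92-fold. Both genes were printed in block 42, where 61 of 103 Empty spots exceeded a background limit in at least 1 channel. The median Empty spot of that block read 744 and 305 in degenerative cornea on arrays 1 and 2, and 838 and 159 in normal cornea, and its brightest read 2458 and 2355 in degenerative cornea and 2535 and 1536 in normal cornea. The Cryba2 intensities in normal cornea therefore lay within the range of the Empty spots of their block on array 1 and above it on array 2, while those of Cryba1 lay above it in all 4 channels. The part of this signal in the ratios was not tested.

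Cryba4, the other acidic member measured, was close to the size that made a call. Its intensities were 1410 and 1419 in degenerative cornea on arrays 1 and 2, and 664 and 507 in normal cornea. In normal cornea it lay at 1.17 and 1.36 times the background limits. Log2 ratios of 1.18 and 1.03 gave a mean of 1.10 ± 0.11, or 2.15-fold. Degenerative cornea was the brighter tissue on both arrays, but array 2 passed the size by a narrow margin. In its print block 0 of 8 Empty spots exceeded a limit.

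Crybb2, the most abundant basic beta crystallin of many lenses, had the smallest spread, in the deposited ratios, of the 7 genes called higher. It read 24256 and 24969 in degenerative cornea on arrays 1 and 2, and 6324 and 6477 in normal cornea. The log2 ratios of 2.05 and 2.10 gave a mean of 2.07 ± 0.03, or 4.21-fold, with the tissues clearly separated. Crybb1, a basic beta crystallin with long terminal extensions, read 2042 and 1894 in degenerative cornea, and 759 and 460 in normal cornea. Its log2 ratios were 1.78 and 1.65, a mean of 1.71 ± 0.10 or 3.28-fold. In normal cornea Crybb1 lay at 1.33 and 1.23 times the background limits.

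Crybb3, the remaining basic member, was read by 1 usable spot. The spot in print block 13 had 6805 and 7514 in degenerative cornea on arrays 1 and 2, and 3213 and 3040 in normal cornea. Its log2 ratios of 1.05 and 1.22 gave a mean of 1.13 ± 0.12, or 2.19-fold, just past the size of a call on array 1. The other spot, in print block 21, was below the limit in all 4 channels, with 120 and 68 in degenerative cornea and 270 and 143 in normal cornea. Its log2 ratios of 0.03 and -2.24 rest on that dim signal and were left out. When dim spots were kept, the gene's value was the mean of both spots, 0.54 on array 1 and -0.51 on array 2, and Crybb3 was no longer called.

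**Figure D2:**
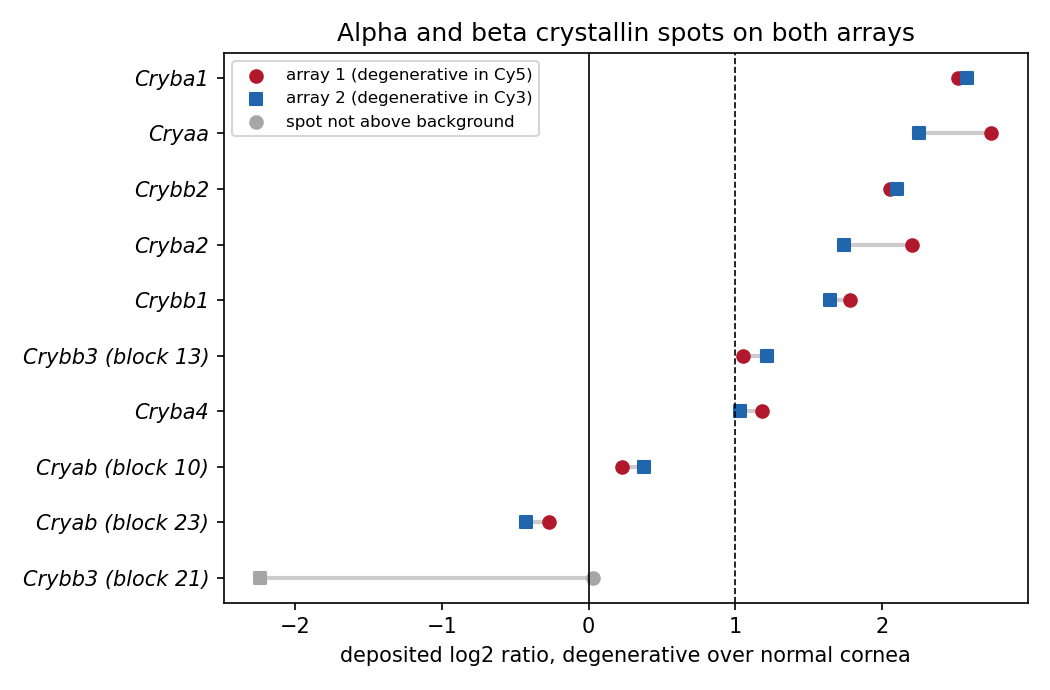
Deposited log2 ratios, degenerative over normal cornea (horizontal axis), of the 10 crystallin spots on array 1 (red circles) and array 2 (blue squares), with the line joining the arrays, the dashed line at the call size of 1 and the spot below background in grey. For 7 genes the spot above background lies past 1 on both arrays, the grey second Crybb3 spot does not, and the 2 Cryab spots lie on opposite sides of 0.

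**Figure D3:**
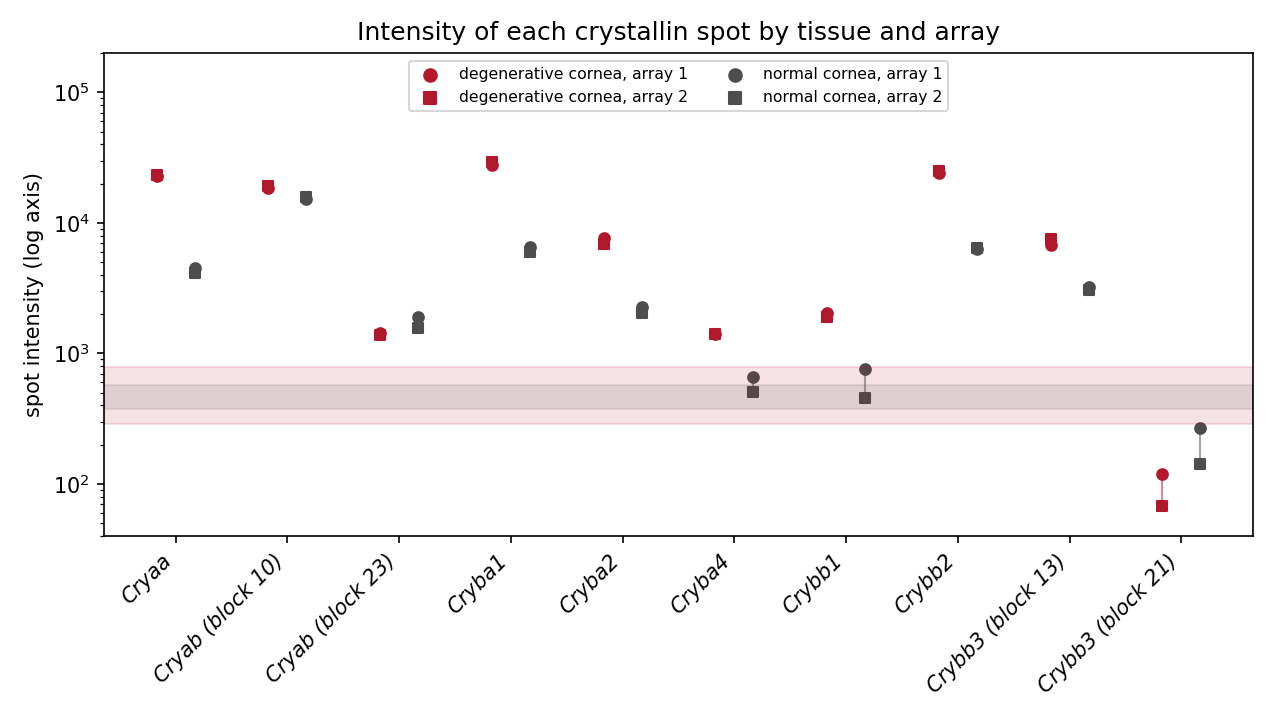
Intensity of each spot on a log axis, with degenerative cornea in red on the left and normal cornea in grey on the right of each pair, circles for array 1 and squares for array 2, and shaded bands spanning the background limits of the arrays in each tissue. The called crystallins were above the limits in normal cornea too, narrowly so for Cryba4 (664 and 507) and Crybb1 (759 and 460).

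The genes were ordered by mean deposited log2 ratio, and the readings of neighbours in that order were compared over the arrays. Cryba1 and Cryaa were the 2 highest, and their ranges over the arrays overlapped. Crybb2 came next, 0.15 below the lower Cryaa reading, and overlapped with Cryba2, which overlapped with Crybb1, while Crybb2 and Crybb1 did not overlap. Crybb3 and Cryba4 followed, 0.43 below the lower Crybb1 reading, and overlapped with each other. Cryab lay a further 1.05 below. The acidic beta crystallins ranged from 1.10 to 2.55 and the basic ones from 1.13 to 2.07, so the subclasses covered similar ranges. Cross-hybridisation between close family members and compression near background can both alter such ratios, and neither was tested.

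Exchanging the dyes changed no direction among the usable spots. Array 1 gave the larger ratio for 5 of 8 genes and array 2 for 3. The dye term, taken as the size of the difference between arrays divided by 2, had a median of 0.071 and a highest value of 0.25 over the 8 genes, against a median of 0.072 over all named genes. Of the 8 genes 7 were above 0 on both arrays, against 34.6% of all named genes. Nothing is read from that contrast either, because these ratios chose the members. Before normalization 8 of the 9 usable spots were brighter in degenerative cornea on both arrays, the exception being the Cryab spot in block 23. The 9 spots summed to 112636 and 116005 in degenerative cornea on arrays 1 and 2, and to 41530 and 39880 in normal cornea. That was 0.153% and 0.149% of the summed gene signal in degenerative cornea, and 0.0516% and 0.0529% in normal cornea. Whether such a difference reflects more cells making crystallins or more RNA per cell cannot be told apart in bulk RNA.

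**Figure D4:**
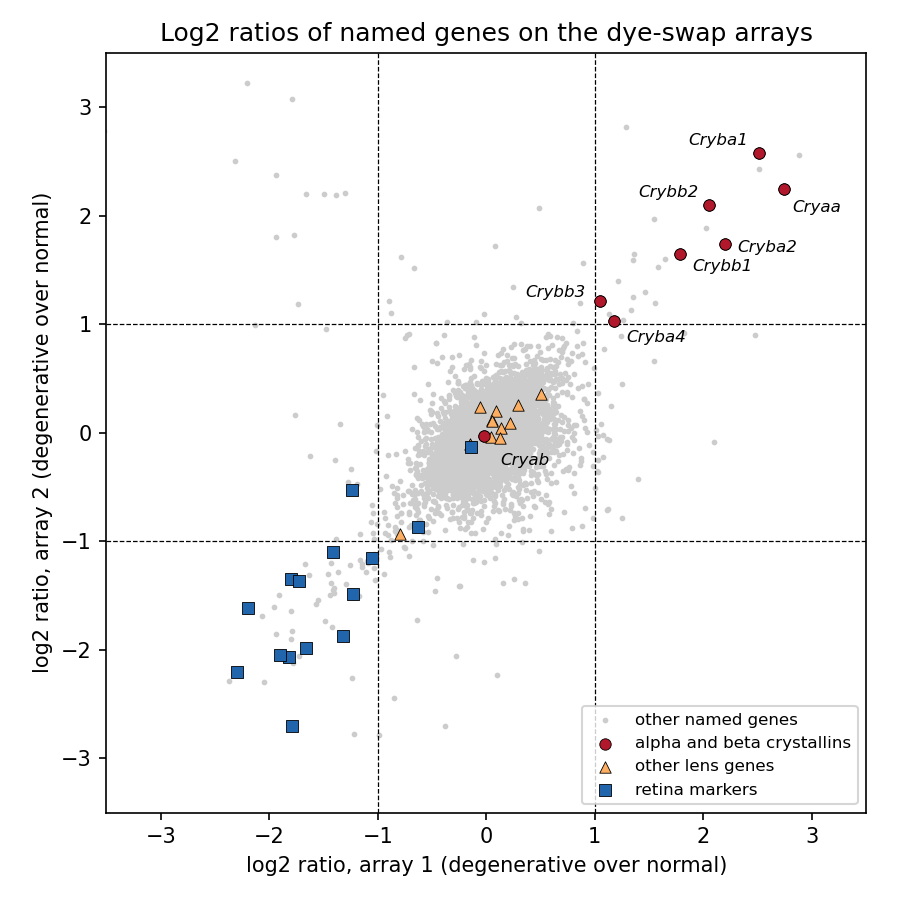
Log2 ratios, degenerative over normal cornea, of 7896 named genes on array 1 (horizontal) and array 2 (vertical), with alpha and beta crystallins in red, lens fibre and lens transcription factor genes in orange and retina markers in blue. Dashed lines mark the call size of 1 in either direction, 8 genes lie outside the axes, and 7 of the 8 red points lie in the upper right corner.

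Neighbouring crystallin genes did not share a deposited ratio. By the RefSeq annotation (GRCm38.p6), 4 of the 8 genes lie on chromosome 5 as neighbouring pairs, Cryba4 beside Crybb1 and Crybb2 beside Crybb3. Crybb2 had log2 ratios of 2.05 and 2.10, against 1.05 and 1.22 for its neighbour Crybb3, and the ranges did not overlap. Crybb1 had 1.78 and 1.65, against 1.18 and 1.03 for Cryba4, again without overlap. Cryab is the neighbour of Hspb2, another small heat shock protein gene, whose log2 ratios of 0.26 and -0.43 changed sign between arrays.

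Gamma crystallins, the monomeric relatives of the beta family, were higher as well, and 5 of 6 measured were called, against 0.317% of all named genes. Nothing is read from that contrast, because this list too was chosen with earlier results of these data known. They had a median of 1.47, from Cryga at 0.26 ± 0.25 to Crygs at 2.72 ± 0.23. With the members, which had been chosen on these ratios, they made up 12 of the 25 named genes called higher.

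Lens genes that are not crystallins had no called gene. In the lens fibre membrane and cytoskeleton list 13 of 16 genes were on the array and 7 were above background, with 0 called and a median of 0.085. Mip, the water channel of lens fibre membranes, read 5295 and 7954 in degenerative cornea on arrays 1 and 2, and 4210 and 5769 in normal cornea, a log2 ratio of 0.43 ± 0.10. The beaded filament genes Bfsp1 and Bfsp2 had 0.092 ± 0.07 and 0.085 ± 0.05, and Gja3, a lens fibre connexin, had -0.00015 ± 0.06. Bfsp2 was below the background limits in degenerative cornea on array 2 (670) and in normal cornea on array 1 (493). Gja3 was below the limit in degenerative cornea on array 2 (600), so the ratios of Bfsp2 and Gja3 rest on dim signal. Cdh2, the adhesion protein N-cadherin, had the ratio largest in size, -0.86 ± 0.09. Grifin, Lgsn and Dnase2b did not have a channel above background on each array and were left out. The list's usable spots summed to 12599 and 16069 in degenerative cornea, and to 13759 and 13454 in normal cornea, so the tissues overlapped. Cdh2 is part of those sums, with 1786 and 1689 in degenerative cornea and 3373 and 2491 in normal cornea. Of the 7 genes 3 were above 0 on both arrays, against 34.6% of all named genes. Only 1, Cdh2, was below 0 on both, against 32.9%. Lim2 was not matched by name.

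Lens transcription factors and chaperones of the alpha crystallin family were also uncalled. Of 16 lens transcription factors 12 were on the array and 5 above background, with 0 called and a median of 0.15. Pax6 (0.15 ± 0.08) was above 0 on both arrays, while Maf, Prox1, Pitx3 and Hsf4 were not above background. Of 7 other small heat shock proteins 4 were measured and 0 called, with a median of -0.0084. Hspb1 had a ratio of 0.067 ± 0.007 and Hspb8 of -0.64 ± 0.03. The enzyme crystallins, metabolic enzymes that accumulate in lens or cornea, had 8 measured genes, 0 called and a median of -0.033, with Aldh3a1 and Tkt saturated in both tissues.

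Retina markers were lower in degenerative cornea. All 15 measured of 17 retina markers were below 0 on both arrays, against 32.9% of all named genes, and 12 were called lower, against 0.709%. Nothing is read from those contrasts, because the list was chosen with earlier results of these data known. Among those called, Pde6h (234 and 234.5) and Opn1sw (273 and 390) were not above background in degenerative cornea on either array. Aipl1, Tulp1 and Rbp3 were not above it in degenerative cornea on array 2, nor were the uncalled markers Crx and Gnat2. These genes passed the filter through normal cornea there, so their ratios have no measured numerator. The median of all 15 measured markers, the dim ones included, was -1.58. The usable spots of the 15 summed to 90538 and 85253 in degenerative cornea on arrays 1 and 2, and to 199926 and 177770 in normal cornea. Sag, the rod arrestin, read 5174 and 4808 in degenerative cornea, and 22015 and 21896 in normal cornea. The 3 measured pigment cell markers had 0 called and a median of -0.85, summing to 16871 and 17506 in degenerative cornea, and to 31730 and 29595 in normal cornea. The 7 measured corneal epithelium markers had a median of 0.26 and 0 called, and summed to 327381 and 291992 in degenerative cornea, and to 291852 and 267743 in normal cornea, with Krt12 and Krt5 saturated. The part of these tissues in the crystallin ratios was not tested.

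**Figure D5:**
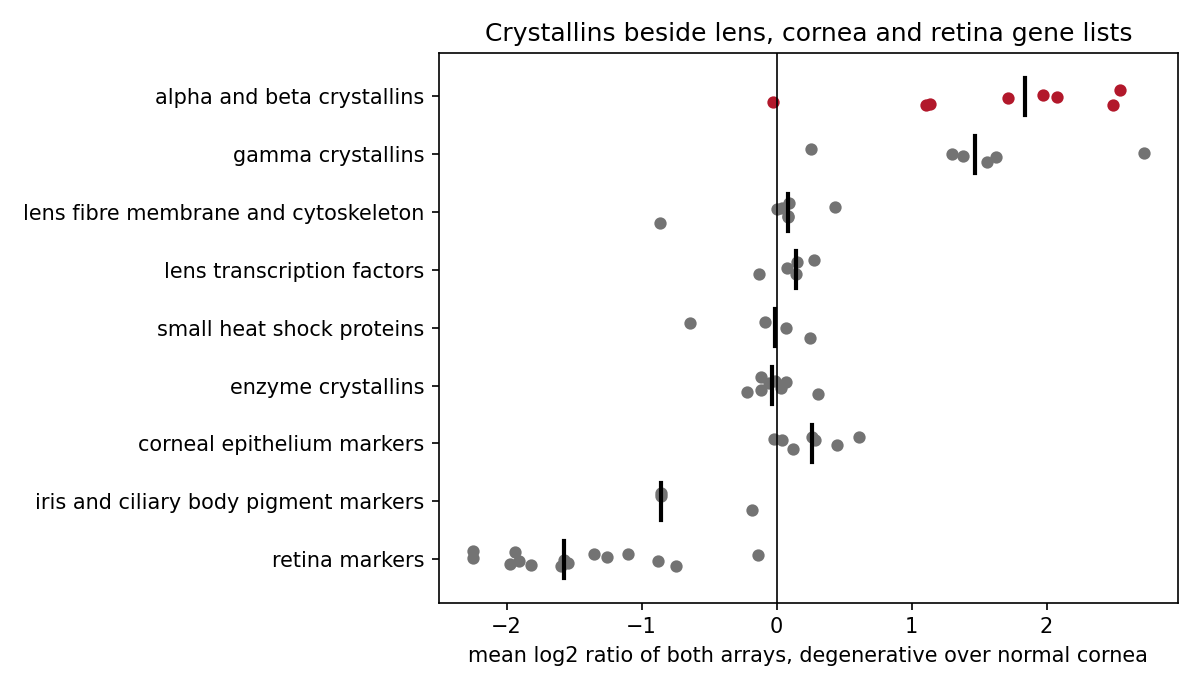
Mean log2 ratio over both arrays, degenerative over normal cornea, of each measured gene (points) in 9 lists, with a black bar at each list's median. Alpha and beta crystallins (median 1.84) and gamma crystallins (1.47) lie to the right of lens fibre genes (0.085), and retina markers (-1.58) lie to the left.

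Outside the crystallins, the named genes nearest to the members' median pair of log2 ratios (1.92 on array 1 and 1.69 on array 2) were Krt16, Csn3 and Steap4. Likeness was the Euclidean distance between pairs of ratios over the 2 arrays. Krt16, a keratin of wounded epidermis, had 2.02 and 1.89, at a distance of 0.22. Csn3, which encodes kappa-casein of milk, had 1.54 and 1.97, at 0.46. Steap4, a metalloreductase, lay at 0.56, but it was not above background in normal cornea on either array, so its ratio has no measured denominator. The other two of the 5 nearest carried protein identifiers as names.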

How the data were processed

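Spotted arrays with 2 colours were used as the authors deposited them. The Cy5 and Cy3 intensity of each spot had been background-subtracted by the authors before deposit, since values below 0 occur; the labels used here name neither scanner nor method. The log2 ratio, degenerative over normal cornea, had been normalized by the authors, per the file headers, by a method not stated there. The linear ratio, per the file headers, is the same value and was not used further, and the series' value table held identical log2 ratios.

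Control spots (1780 of 37632) were left out. Names were updated through RefSeq symbols (GRCm38.p6, names and neighbours only). A gene's value was the mean over its spots above background. Saturation was 98% of a channel's highest intensity. Print-tip and whole-array loess (span 0.3, intensities floored at 1) were computed in limma 3.58.1 (R 4.3.3), other steps in Python 3.11.15 with pandas 2.3.3 and numpy 2.4.6. The code for calls was run on simulated data with noise of equal spread for all genes and no changed gene near the call size. That run therefore says nothing about calls near that size. In the data 15 of 7896 named genes passed the size in opposite directions on the arrays. Genes named are the members, up to 4 of each list by size of ratio, 6 fixed lens and corneal genes, and the 5 nearest genes. Dnase2b, Grifin, Lgsn, Prox1, Pitx3, Hsf4 and Maf were named as left out by the background filter. Cryga, Gja3, Hspb2, Aldh3a1, Tkt, Krt5, Aipl1, Tulp1, Rbp3, Crx and Gnat2 were named after their values were seen. Members, lists and motifs were chosen with earlier results of these data known. No test across mice was possible with 1 replicate; the number of arrays limits the precision.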

Additional observations from a re-analysis of the deposited data

Results flagged for a closer look

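Signal from spots named Empty, used only to set the background limits, appeared in print block 42, which holds the Cryba1 and Cryba2 spots. There 30 of 103 Empty spots were above background on both arrays. Of the 5 Empty spots in block 43, which holds the Cryaa spot, 2 exceeded a limit in at least 1 channel and 0 did so on both arrays. In the blocks of Cryba4, Crybb2 and the brighter Cryab spot 0 of 8 Empty spots each exceeded a limit. The blocks of Crybb1, of both Crybb3 spots and of the dimmer Cryab spot held 0 Empty spots. Their local background could not be checked, and the settings that left out blocks kept them. The part of the Empty signal in the crystallin ratios was not tested.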

How the results depend on the processing

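Across 13 alternative settings the 7 called crystallin genes kept a mean log2 ratio above 0 wherever they had a usable spot, although for Crybb3 it was 0.014 without a filter on dim spots. Cryab was called in no setting, and its ratio ranged from -0.025 to 0.30, with the highest value from its brighter spot alone. Of 82 values for single genes, 67 moved by less than the spread between arrays and 15 by more. Settings that changed only the filter, the blocks or the spots left most deposited ratios as they were. Leaving out 1 array shifts a mean by less than that spread by construction, so those values could not move by more. The count of 67 is therefore no measure of stability. Apart from Crybb3 without a filter and Cryab at its brighter spot, the values that moved by more came from the other normalizations. Cryab, Cryba1, Cryba4 and Crybb2 moved by more with print-tip loess, whole-array loess and unnormalized ratios alike. Crybb1 did so with print-tip loess only, and Cryaa, Cryba2 and Crybb3 with none of them. Unnormalized ratios centred on each array's median left 5 members called, without Cryba4 and Crybb3 (0.94 and 0.76 on array 2), although both passed the size on each array before centring. They changed the genes called lower to 37 and the called genes of the gamma crystallin, lens fibre and lens transcription factor lists to 2, against 5, where all 5 were gamma crystallins. The members' median was 1.66 with print-tip loess and 1.42 without the 4 print blocks with at least 20 Empty spots above a limit, which hold Cryba1 and Cryba2. Leaving out all 8 blocks with over 25% of Empty spots above a limit, chosen after seeing the data, also removed Cryaa and left a median of 1.13 with 4 members called, against 7. On array 2 alone 55 genes were higher and 85 lower, on array 1 alone 49 and 91, with 7 members called on each and medians of 1.69 and 1.92. Genes called higher and lower numbered 16 and 34 with the limit at the 95th percentile of the Empty spots, 179 and 130 without a filter, 13 and 18 at a size of 1.5 (3 in those lens lists) and 89 and 153 at a size of 0.5, against 25 and 56. Of the members 5 were called at a size of 1.5, without Cryba4 and Crybb3, and 6 at the 95th percentile limit, where Cryba4 had no usable spot. With both channels above the limit, also chosen after seeing the data, 30 genes were lower. The cause of these differences was not tested, beyond the fewer genes or blocks that some settings keep. No paired analysis was possible because there is 1 group of ratios and no test.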
